A study of Mus musculus with 6 samples.

Results

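The mouse miRNA entries numbered miR-6896 to miR-7094 are a block of short intron hairpins. They were chosen here by name alone: every entry of the deposited table whose number lies between those of miR-6896 and miR-7094, both included, whatever its arm. There are 339 of them among 1712 entries, 173 from a 5p arm and 166 from a 3p arm. They cover 194 of the 199 numbers in the range, and 6 of them carry a letter or a copy number after the number. The mmu- prefix is left out below.

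Most miRNAs are cut out of a long transcript by Drosha and then by Dicer. A mirtron skips Drosha: the spliceosome frees a short intron, the lariat is opened, and the intron folds into a hairpin that Dicer can cut. In a tailed mirtron the hairpin sits at 1 end of a longer intron, and the extra bases on the other side have to be trimmed away. Introns end in a run of pyrimidines followed by AG, so the 3p arm of a hairpin at the 3′ end of an intron lies on that sequence.

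Small RNA was sequenced from extracellular vesicles shed by apoptotic osteoblasts, the bone-forming cells. The control group is 3 libraries from SIRT6f/f mice, which carry floxed alleles of the deacetylase gene Sirt6 and no Cre. The knockout group is 3 libraries from Prx1cre;SIRT6f/f mice, which carry the same floxed alleles and a Cre driven by the Prx1 enhancer, active in limb bud mesenchyme and its descendants and not in every tissue. The question is whether loss of Sirt6 in this lineage goes with another miRNA cargo of the vesicles. In both groups the osteoblasts were driven into apoptosis and kept 48 h without serum, and the labels name no further treatment. The sources used here give neither the age of the mice nor the inducing agent. They do not say whether libraries came from separate animals or cultures. The p-values below therefore concern only these libraries, whose differences may be technical. In the main fit of single entries the spread was predicted from an entry's level and not taken from its own replicates. Sirt6 mRNA was not measured in these small RNA libraries, so the deletion was not checked.

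Levels are RPM, reads scaled so that those listed for a library sum to 1000000. If the lowest non-zero value of a library stands for 2 reads, the depth was 1352045 to 1627705 reads in the control and 1608276 to 1838239 reads in the knockout libraries, and 3 reads correspond to 1.63 to 2.22 RPM. Such floors cover counting error only. Let-7 and the miRNAs numbered up to 1000, called classical here, took 45.8% ± 3.05 of control and 31.1% ± 6.71 of knockout reads (SD, n = 3 each), and entries with a numeric ID and no miRNA name took 47.6% ± 3.85 and 56.6% ± 5.37. The other named entries, outside both the classical set and the block, took 6.43% ± 0.960 and 11.8% ± 1.26. RPM values share a fixed total, so these shares bear on every difference below. Of 7 miRNAs that mark mesenchymal cells, 6 were listed, and their sum ranged from 78375 to 86481 RPM in controls and from 29653 to 59871 RPM in knockouts. The listed blood, endothelial, epithelial, muscle, neural and liver markers summed to at most 297 RPM per list in any library. The neural miR-124-3p and the red cell miR-486a-5p were not listed. miR-486b-5p, which was on none of these marker lists, averaged 426 RPM over the 6 libraries. The sums of the red cell, leukocyte, endothelial, muscle and liver markers were lower in every knockout than in every control library. The part of these markers in the results below was not tested.

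The hairpins of the block sit at the 3′ ends of introns. RefSeq's miRNA table (GRCm38.p6) holds a sequence for 302 of the 339 entries and the position of 182 hairpins with these numbers, of which 172 have a listed entry, and GENCODE M21 gives the introns on the same build. Of the 182 hairpins, 162 (89.0%) had their 3′ end within 10 bases of the 3′ end of an intron and their 5′ end farther inside it, the layout of a tailed mirtron. A further 15 hairpins (8.24%) filled an intron from end to end within 10 bases, and 3 sat at its 5′ end. In 168 hairpins the last base was exactly the last base of the intron. Among 401 classical hairpins, 1 lay at the 3′ end of an intron only and 2 filled one, and among 422 hairpins of the other named miRNAs the counts were 31 and 6.

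The host introns were of very different lengths, from 66 to 36269 bases with a median of 450, and 62 of them were shorter than 200 bases. The hairpins themselves had a median length of 66 bases, against 83 for the classical ones. They lay in 178 host genes on 19 chromosomes, so few of them share a transcript.

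**Figure D1:**
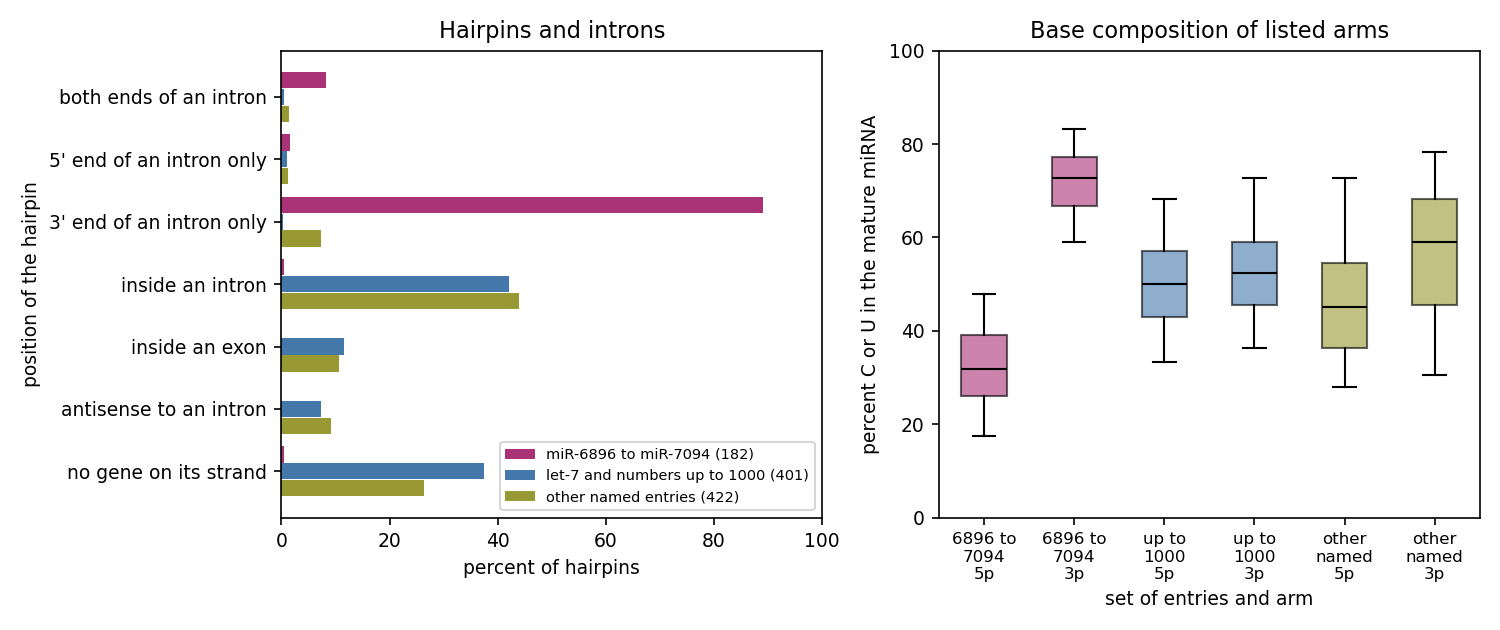
Left, percent of hairpins (x axis) at each position relative to introns (y axis) in 3 sets of miRNAs; 162 of 182 hairpins of the miR-6896 to miR-7094 block lie at the 3′ end of an intron only. Right, percent of C or U in listed mature miRNAs (y axis) by set and arm (x axis), with boxes from the first to the third quartile, the median as a line and whiskers from the 5th to the 95th percentile; the 3p arms of the block have a median of 72.7% and its 5p arms 31.8%.

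The mature sequences carry this position. Of the 149 listed 3p arms with a sequence, 119 (79.9%) ended in AG, against 4.92% of 244 classical and 18.7% of 155 other named 3p arms. In 133 of 173 hairpins with a placed 3p arm, that arm ended on the last base of the intron, and in 162 it ended within 3 bases of it. The 3p arms of the block had a median of 72.7% C or U and 14.3% G, whereas the 5p arms had 31.8% C or U and 45.5% G. For classical miRNAs the median share of C or U was 52.4% in 3p arms and 50.0% in 5p arms.

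The following hairpins show these layouts, 5′ to 3′, with the annotated mature arms in capitals. Mir6958 fills a 73-base intron of Dennd6b, so it opens with GU and closes with AG (GRCm38.p6, chr15:89185465-89185537, minus strand). Mir6937 and Mir7087, the sources of the 2 most abundant entries, are tailed: they occupy the last 65 of 1492 bases of an intron of Adi1 (chr12:28679325-28679389, plus strand) and the last 70 of 1780 bases of an intron of Sidt2 (chr9:45939521-45939590, minus strand).
Mir6958: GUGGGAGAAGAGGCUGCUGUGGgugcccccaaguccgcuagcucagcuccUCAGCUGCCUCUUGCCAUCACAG
Mir6937: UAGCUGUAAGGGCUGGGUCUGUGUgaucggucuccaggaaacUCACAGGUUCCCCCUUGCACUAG
Mir7087: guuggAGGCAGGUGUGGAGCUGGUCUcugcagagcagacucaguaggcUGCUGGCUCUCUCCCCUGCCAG

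The mature sequences of entries that differed between the genotypes or stood out in level follow, with the seed (bases 2 to 8), the stretch that pairs with targets, in capitals. The 3p arms of Mir7087, Mir6899 and Mir6961 end in the intron's AG, whereas miR-6942-3p is annotated 1 base short of it. The 5p arm miR-7033-5p shows the G-rich side of such a hairpin.
miR-6937-5p: uAGCUGUAagggcugggucugugu
miR-7087-3p: uGCUGGCUcucuccccugccag
miR-6942-3p: uUAUGGUUcucuccaccucuca
miR-6899-3p: uUGUCCUUcugugucuucugcag
miR-6961-3p: uCCUCUUUcuuccuggcucuag
miR-6958-3p: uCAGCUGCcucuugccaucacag
miR-7033-5p: uCUCCAGGagucugaggggcagg
miR-7036b-3p: uUCCUGGUgggccucggggucc

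The seeds were mostly unlike each other. Seeds were compared among entries of the table with a RefSeq sequence, which cover 530 of 640 classical and 472 of 549 other named entries. Entries without a miRNA name were not compared. The 302 entries of the block with a sequence had 279 different seeds, and 232 shared their seed with no other compared entry. The seeds of miR-6937-5p, miR-7087-3p, miR-6942-3p and miR-6899-3p were among those 232. Another 21 entries had the seed of a classical miRNA, for example (chosen after values were seen) miR-7003-5p with that of miR-491-5p and miR-6958-5p with that of miR-30c-1-3p and miR-30c-2-3p. miR-7047-5p shared its seed with miR-6965-5p and miR-3103-5p, and miR-6916-5p with miR-6942-5p. No other mature sequence of the RefSeq table held bases 2 to 17 of the 13 named entries compared, a run of 16 bases.

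Most names of the block were detected, most of them at a few reads. RefSeq's table lists 355 mature names in the range, of which 302 (85.1%) appeared in the deposited table, against 75.9% of 698 classical and 75.4% of 626 other names. No entry of the table was at 0 in all libraries. Between 148 and 188 of the 339 entries were above 0 in a control library and between 182 and 204 in a knockout library. The lowest number was in control replicate 2, the shallowest library, and the highest in knockout replicate 3, the deepest. Of the 339 entries, 47 (13.9%) were above 0 in all 6 libraries, whereas 43.1% of classical and 20.0% of other named entries were. Another 82 (24.2%) were above 0 in 1 library only, against 19.1% of classical and 23.1% of other named entries.

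The median of the mean level was 1.002 RPM, under the value of 3 reads, against 2.07 RPM for classical and 0.826 RPM for the other named entries. A mean of at least 10 RPM was reached by 14 entries (4.13%), against 31.6% of classical and 10.6% of other named entries. Detection in 1 genotype only was shallow: 51 entries were listed above 0 only in control and 56 only in knockout libraries, with means of at most 1.26 and 2.03 RPM. The 82 entries above 0 in a single library fall in 1 genotype by construction. The share of entries seen in 1 genotype only was not computed over the whole table, so these counts are not read as a trait of the block. At this depth such an absence is not distinguishable from a low level. Of the entries seen in 1 genotype only, miR-7036b-3p was the 1 above 0 in all 3 knockout and no control libraries. miR-6957-5p and miR-7048-5p, named for this after their values were seen, were the 2 above 0 in all 3 control and no knockout libraries.

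A pair of entries held most of the reads. miR-6937-5p, from the intron of Adi1, a dioxygenase of the methionine salvage pathway, had 57.1% to 72.8% of the block's reads in each library. With miR-7087-3p, from the intron of Sidt2, a lysosomal membrane protein, the share was 64.4% to 86.4%. The 14 entries that averaged 10 RPM or more took 80.6% to 91.6%, and the other 325 entries shared the rest.

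The summed level of the block was higher in the knockout libraries. It was 2794, 2053 and 2212 RPM in control replicates 1 to 3 and 4405, 4605 and 5895 RPM in knockout replicates 1 to 3, with means of 2353 ± 390.0 and 4969 ± 809 RPM (mean ± SD, n = 3 each), a ratio of 2.11. Every knockout library was above every control library. The summed share of the other named entries was higher in knockouts too, with a ratio of 1.83 and no overlap between the groups. The difference rested on 2 entries, singled out after their values were seen: without miR-6937-5p and miR-7087-3p the sums were 784 ± 110 and 753 ± 49.7 RPM, a ratio of 0.960, and the groups overlapped. Without miR-6937-5p alone the ratio was 1.69.

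**Figure D2:**
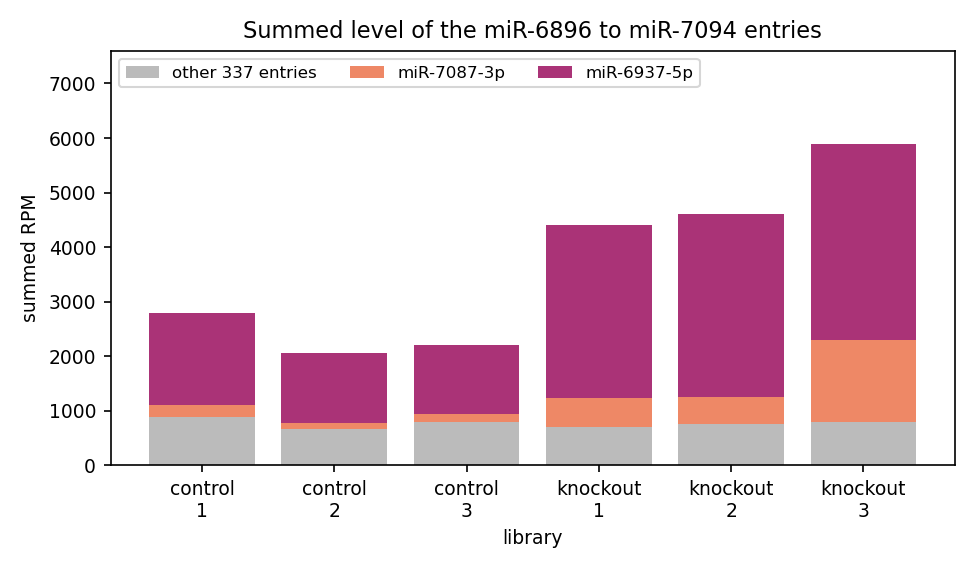
Summed RPM (y axis) of the 339 entries in each of the 6 libraries (x axis), stacked by miR-6937-5p, miR-7087-3p and the other 337 entries. The grey part stays between 674 and 893 RPM in all libraries, while the total is 2053 to 2794 RPM in controls and 4405 to 5895 RPM in knockouts.

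Single entries were tested with limma on log2(RPM + 1), across the 1114 entries of the table with at least 1 RPM in at least 3 libraries. Since no non-zero value was below 1 RPM, this filter keeps entries detected in at least 3 libraries, 209 of the 339. Of these, 3 reached 1 RPM in libraries of 1 genotype only. Past a Benjamini-Hochberg adjusted p of 0.05, miR-6937-5p, miR-7087-3p and miR-6942-3p rose and miR-6899-3p fell. miR-7036b-3p was called higher too, but it passed the filter only through the knockout libraries and so had to differ. Over all tested entries 4.85% were called, 2.15% higher and 2.69% lower. In this fit limma gave each entry the spread predicted from its level and no weight to its own, so the SEs below do not reflect how far an entry's replicates lie apart; without that trend limma called 0 of the 209, while 17 higher and 13 lower ones had an unadjusted p under 0.05.

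miR-6937-5p was the most abundant entry of the block in every library. It had 1684, 1286 and 1262 RPM in controls and 3174, 3352 and 3591 RPM in knockouts. The knockout values lay close together and far above the control values. In bulk vesicle RNA, a change in how many vesicles carry an entry and a change in its amount per vesicle cannot be told apart. The means were 1411 ± 237 and 3372 ± 209 RPM, a 2.39-fold rise (log2 difference 1.27 ± 0.29 SE, limma adjusted p = 0.00103). Without control replicate 3 the difference was 1.19 and the call was lost (limma adjusted p = 0.0892). As the hairpin shows, this 5p arm ends before the loop and so does not reach the splice acceptor. The partner miR-6937-3p, which does end on the intron's AG, had 1.44, 1.48 and 0 RPM in controls and 1.24, 2.26 and 0 RPM in knockouts.

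miR-7087-3p had 216, 93.2 and 163 RPM in controls and 529, 497 and 1503 RPM in knockouts. The groups did not overlap, and knockout replicate 3 stood far above the other knockout libraries. The log2 difference was 2.29 ± 0.29 SE (limma adjusted p = 7.75e-12), and 1.78 without knockout replicate 3 (limma adjusted p = 0.000596). Its partner miR-7087-5p was at 2.88 RPM or less in every library and at 0 in 3 of them.

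miR-6942-3p lies in an intron of Zkscan3, a zinc finger factor that represses autophagy genes (hairpin chr13:21396578-21396638, minus strand). It had 3.60, 0 and 1.23 RPM in controls, close to or under 3 reads, and 22.4, 7.34 and 43.0 RPM in knockouts. All knockout values were above all control values, but they lay far apart among themselves. The log2 difference was 3.24 ± 0.62 SE (limma adjusted p = 2.45e-05). With controls this low its size depends on the pseudocount and the scaling: it was 3.70 with a pseudocount of 0.5, 1.97 with a pseudocount of 5 and 3.97 scaled to the entries with a miRNA name. Without knockout replicate 3, where it was highest, the difference was 2.68 and the call was lost (limma adjusted p = 0.0611). The partner miR-6942-5p was listed in 1 library, at 2.22 RPM.

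miR-7036b-3p was listed at 0 in every control library, whereas it had 4.35, 5.08 and 2.72 RPM in knockouts. These are few reads, and the call (limma adjusted p = 0.0457) was lost in 10 of 11 alternatives that gave a value, among them the fits without any 1 control library (limma adjusted p = 0.0975 to 0.163). Its hairpin is the 1 placed member that lies inside an intron away from both ends, 237 bases from the 5′ end of an intron of Add1, a protein of the membrane skeleton (chr5:34574151-34574213, plus strand). It also lies within an annotated exon on that strand.

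miR-6899-3p, from the last bases of a 36269-base intron of Klf7, a Krüppel-like transcription factor (hairpin chr1:64042438-64042501, minus strand), was the lower entry. It had 133, 112 and 141 RPM in controls and 64.0, 93.8 and 36.4 RPM in knockouts. Every knockout value was below every control value. The log2 difference was -1.07 ± 0.33 SE (limma adjusted p = 0.0348). Scaled to the entries with a miRNA name it was -0.80 (limma adjusted p = 0.139), and of the 6 fits that left out a library only the one without knockout replicate 2 kept the call. In the other 5 the limma adjusted p ran from 0.0642 to 0.216, and the difference was smallest without knockout replicate 3, at -0.72. The partner miR-6899-5p was listed in 1 library, at 1.44 RPM.

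**Figure D3:**
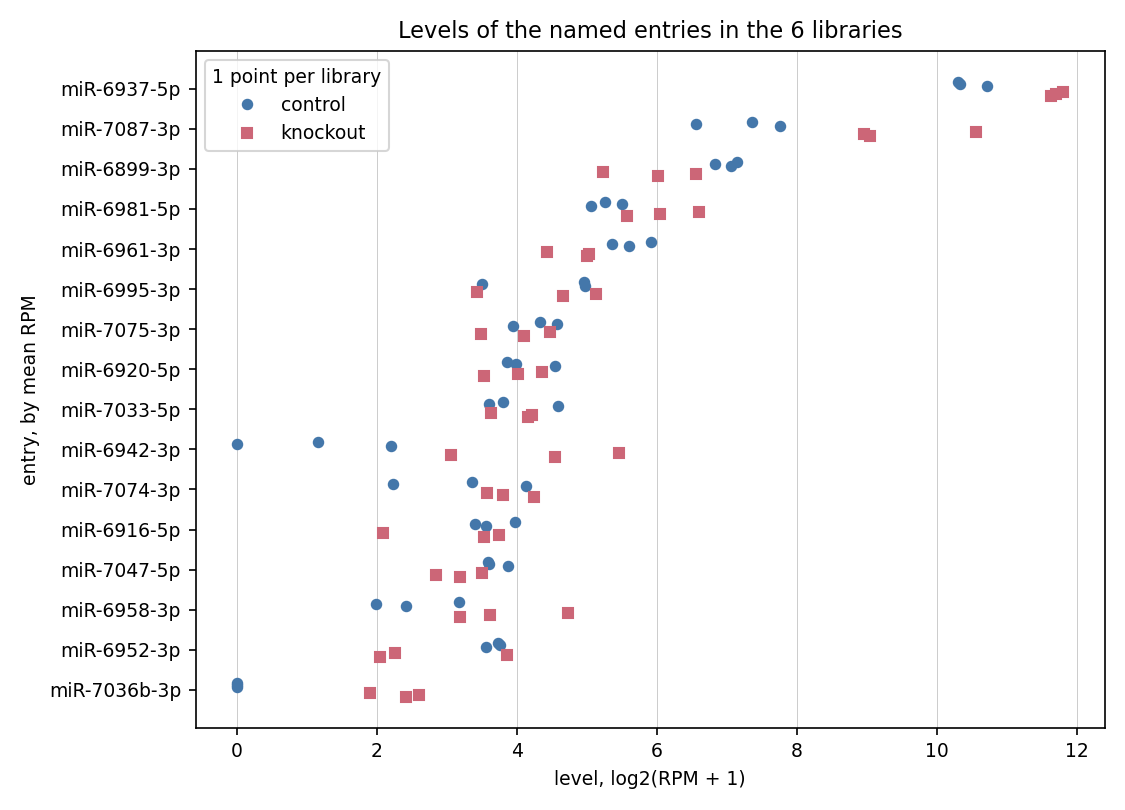
Levels as log2(RPM + 1) (x axis) of the 16 named entries (y axis, by mean RPM), with 1 point for each of the 3 control (circles) and 3 knockout (squares) libraries. The groups are apart for miR-6937-5p, miR-7087-3p, miR-6942-3p and miR-7036b-3p, with the knockout higher, and for miR-6899-3p, with the knockout lower; 4 further entries are apart without a call, and the others overlap.

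Of the 14 entries that averaged 10 RPM or more, 8 had groups that did not overlap, against 53.7% of the 354 tested entries at that level. Besides the 4 called ones these were miR-6981-5p, miR-6961-3p, miR-7047-5p and miR-6958-3p, which did not pass the threshold. miR-6981-5p had 32.4, 44.4 and 37.5 RPM in controls and 46.6, 65.0 and 95.7 RPM in knockouts (log2 difference 0.79 ± 0.36 SE, limma adjusted p = 0.190). miR-6961-3p, from an intron of Bin2, a membrane-bending protein of blood cells, had 47.6, 39.9 and 59.6 RPM in controls and 31.1, 31.6 and 20.7 RPM in knockouts (-0.80 ± 0.38 SE, limma adjusted p = 0.216). The highest control value of miR-6981-5p lay just below its lowest knockout value, and the groups of miR-6961-3p lay farther apart. miR-7047-5p had 13.7, 11.1 and 11.1 RPM against 8.08, 6.21 and 10.3 RPM (-0.51 ± 0.53 SE, limma adjusted p = 0.659).

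The other entries near these levels showed no separation of the genotypes. miR-6995-3p, from an intron of Sh3pxd2a, a scaffold protein of podosomes, had 30.3, 10.4 and 30.1 RPM in controls and 24.2, 33.9 and 9.79 RPM in knockouts, with 1 low library in each group. miR-7075-3p, from a 97-base intron of the telomere protein gene Terf2, had 18.8 ± 4.26 and 15.9 ± 5.53 RPM. miR-6920-5p had 16.9 ± 4.78 and 15.1 ± 4.51 RPM. miR-7033-5p, from a 109-base intron of the nuclear pore gene Pom121, had 15.7 ± 6.46 and 15.2 ± 3.33 RPM. The log2 differences of these 4 were -0.07, -0.27, -0.16 and 0.01, with limma adjusted p from 0.772 to 0.994. miR-7074-3p (Slc12a4, a potassium chloride cotransporter) had 9.83 ± 6.46 and 14.0 ± 3.67 RPM, miR-6916-5p (Esyt1, a tether between membranes) 11.7 ± 2.68 and 8.75 ± 4.84 RPM, and miR-6952-3p 11.9 ± 0.944 and 6.82 ± 5.84 RPM, all without a call.

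Across the block, differences lay on both sides of 0. Of the 209 tested entries 116 were above 0 and 93 below, with a median log2 difference of 0.10, beside a median of -0.27 over all 1114 tested entries and -0.55 over the 435 classical ones. With no filter the median was 0.06 over all 339 entries and -0.14 over the table. Scaling to the entries with a miRNA name moved the median of the table by over 0.1, to -0.08, and that of the block to 0.36. The groups did not overlap in 31 of the 209, 15 with the knockout higher and 16 with it lower, against 25.6% of all tested entries, 6.28% higher and 19.3% lower. The 15 that were higher are 7.18% and the 16 that were lower 7.66% of the 209. The filter on low values keeps entries through the group in which they are detected, so these counts describe the tested entries and not the whole block.

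**Figure D4:**
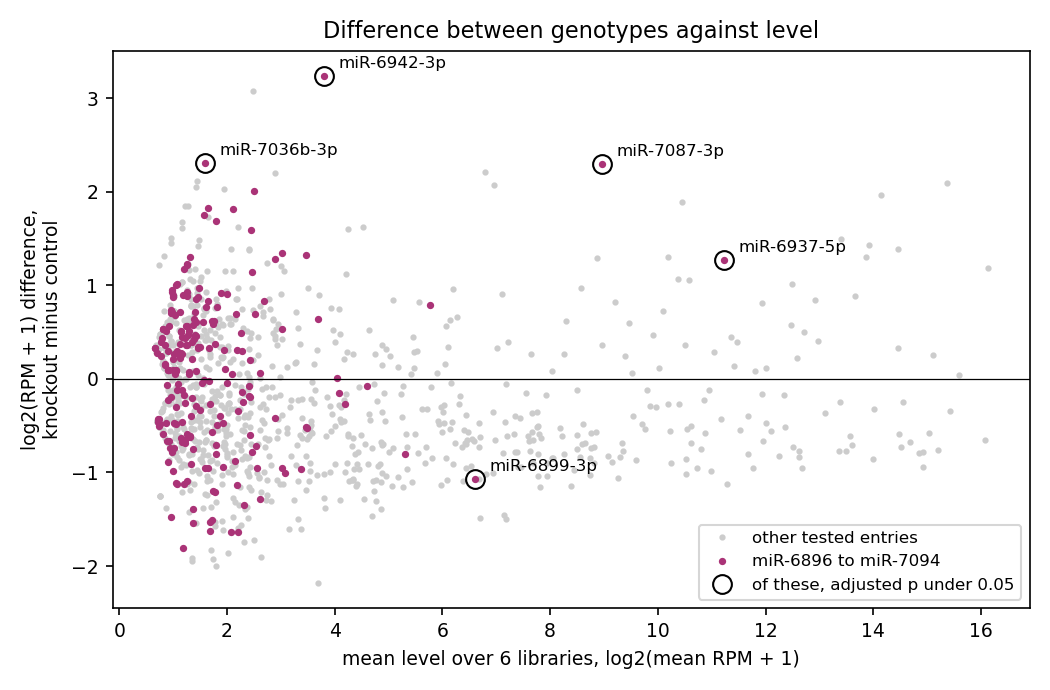
Difference between knockout and control in log2(RPM + 1) (y axis) against the mean level over the 6 libraries as log2(mean RPM + 1) (x axis) for 1114 tested entries, the 209 of the block in purple and the 5 called ones circled and named. Most purple points lie at low levels on both sides of 0, and the 3 called entries on the right, miR-6937-5p, miR-7087-3p and miR-6899-3p, stand apart from them.

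By count the arms were close to parity across the block, while single hairpins were strongly one-sided. Counting an unlisted arm as 0, the 3p arm had the higher mean in 102 of 197 hairpins (51.8%) and the 5p arm in 94. Among the 142 hairpins with both arms listed the 3p arm was the higher one in 78 (54.9%), against 50.2% of 203 classical and 59.8% of 122 other named pairs. In reads the order was set by single entries: the 5p arms summed to 2717 RPM and the 3p arms to 943 RPM in the mean of the 6 libraries. Without miR-6937-5p the 5p arms summed to 321 ± 54.8 RPM in controls and 331 ± 40.6 RPM in knockouts, and without miR-7087-3p the 3p arms to 464 ± 62.9 and 423 ± 20.7 RPM. The medians of the mean level were 0.944 RPM for 5p and 1.07 RPM for 3p entries.

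Of the 14 hairpins whose arms summed to at least 10 RPM, 8 had the 3p and 6 the 5p arm higher. The median share of the higher arm was 96.9% in them, against 99.2% in classical hairpins of that level. The 3p arm was the higher one in all 6 libraries for 6 of the 14, namely miR-7087, miR-6899, miR-6961, miR-6995, miR-7075 and miR-7074. The 5p arm was the higher one in all 6 for miR-6937, miR-6981, miR-7033, miR-6920 and miR-7047. Long and short host introns held hairpins of either side. The 3p arm was the higher one of miR-6899 in an intron of 36269 bases and of miR-7075 in one of 97 bases, and the 5p arm was the higher one of miR-6937 in an intron of 1492 bases and of miR-6916 in one of 90 bases. Among hairpins at the 3′ end of an intron only, the 3p arm was higher in 84 and the 5p arm in 67 of 152 with a listed entry. Among the 15 that fill an intron the counts were 6 and 9.

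**Figure D5:**
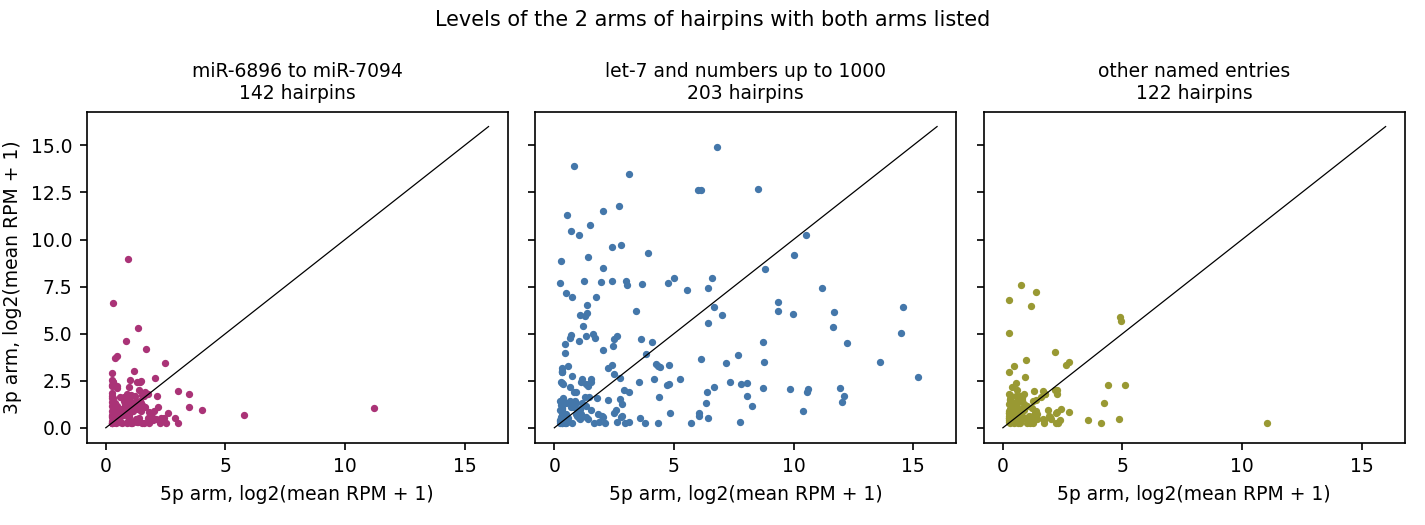
Mean level of the 3p arm (y axis) against the 5p arm (x axis) of the same hairpin, both as log2(mean RPM + 1) over the 6 libraries, for hairpins with both arms listed; the line marks equal levels. In the block (left, 142 hairpins) most points crowd near 0 on both sides of the line, with miR-6937 far to the right and miR-7087 at the top.

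The genotypes were then compared in the 5p to 3p ratio, in which the library total cancels apart from the pseudocount. limma called 0 of the 9 hairpins of the block whose arms could be tested, with 3 at an unadjusted p under 0.05, and 0 of all 118 tested hairpins (0%), with 15 at an unadjusted p under 0.05. The 3 were miR-6958, miR-7075 and miR-7087. The ratio of miR-7087 differed by -2.19 on the log2 scale and that of miR-7075 by -1.36 (limma adjusted p = 0.323 for both). The 5p arms of both were at a few reads. miR-7075-5p had 5.77, 2.96 and 2.46 RPM in controls and 0, 0 and 2.18 RPM in knockouts. On its own miR-7087-5p had a log2 difference of 0.10, beside 2.29 for miR-7087-3p. miR-6958 had the smallest p. Its 5p arm had 5.05, 6.66 and 6.14 RPM in controls and 4.35, 2.26 and 2.72 RPM in knockouts, while its 3p arm had 4.33, 2.96 and 7.99 RPM against 8.08, 11.3 and 25.6 RPM. The 3p arm was above the 5p arm in 1 of 3 control and 3 of 3 knockout libraries. The log2 ratio of 5p to 3p averaged 0.27 ± 0.65 in controls and -1.84 ± 1.04 in knockouts (SD, n = 3 each; difference -2.11 ± 0.61 SE, limma adjusted p = 0.200). This is the hairpin that fills its intron in Dennd6b, a stretch that is also part of an annotated exon on that strand.

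With hairpins down to an arm sum of 3 RPM, 1 of 36 of the block was called, miR-6957, named for this result alone (0.575% of 174 hairpins in all). Its 5p arm passed the rule of 3 libraries only through the controls, so the rule itself fixed a difference in that arm. The call is therefore no evidence of a change. The values are given as a description. Its 3p arm, from an intron of Grap2, an adaptor protein of T cell signalling, had 2.88, 2.96 and 4.91 RPM in controls and 11.8, 7.34 and 13.1 RPM in knockouts. Its 5p arm had 2.16, 2.96 and 2.46 RPM in controls and was listed at 0 in the knockout libraries. These are values of a few reads, and the 3p arm did not pass the threshold on its own (limma adjusted p = 0.180).

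Short intron hairpins with other numbers, miR-877, miR-1224, miR-702 and miR-1981, gave values of the same order. Of their 8 entries 7 were tested and 0 called. miR-1981-5p had 21.8 ± 7.20 RPM in controls and 14.1 ± 5.38 RPM in knockouts. miR-877-3p had 13.0, 11.8 and 12.9 RPM in controls and 5.60, 5.65 and 4.90 RPM in knockouts, a log2 difference of -1.09 ± 0.55 SE (limma adjusted p = 0.243). The groups did not overlap for this entry, nor for miR-877-5p (7.93, 5.92 and 4.30 RPM in controls, 3.11, 3.39 and 1.09 RPM in knockouts). Over all tested entries 19.3% were lower in knockouts without overlap. miR-702-3p was listed in 1 library, at 2.82 RPM.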

How the data were processed

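The authors deposited 1 table of RPM values, and each of its 6 columns sums to 1000000 over all 1712 entries. The tools fastp and edgeR appear in the submitters' processing notes without role or version. Aligner, annotation release and genome build: not given in the sources used here. In each column the deposited RPM values were whole multiples of 1 step within 0.001, and the smallest above 0 was 2 steps; taking a step as 1 read, no entry had 1 read.

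Entries with at least 1 RPM in at least 3 libraries were tested with limma 3.58.1 (R 4.3.3) on log2(RPM + 1) with a trend, 2-sided, adjusted by Benjamini-Hochberg over all 1114. Arm ratios were tested with limma without that trend, so their calls do not compare directly with those of single entries. This test was 2-sided and adjusted by Benjamini-Hochberg over all 118. It covered hairpins with an arm sum of at least 10 RPM and each arm above 0 in at least 3 libraries. In a simulation of the 2 groups, 200 of 1114 entries were changed 4-fold. These 200 were picked only among entries averaging 3 RPM or more, and all entries shared 1 setting for replicate spread. There limma found 88.5% of the changed entries, and 3.28% of its calls were false. Both are single values, not split by level or by replicate spread. The 88.5% concerns the higher entries only. No recovery is given for entries under 3 RPM, and the median of the mean level in the block was 1.002 RPM. Nor do the 2 values give the share of false calls among entries with uneven replicates, such as miR-7087-3p and miR-6942-3p.

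Named entries are those past the threshold, the 15 most abundant, those averaging 10 RPM or more whose groups do not overlap, and their partner arms; others are marked as chosen after their values were seen. The entries and lists were chosen with earlier results of these data known. Same-numbered libraries did not deviate together (correlations of -0.024 to 0.011). Sequences and hairpin positions are from RefSeq and introns from GENCODE M21, both GRCm38. The host gene of 1 named entry is not reported here.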

Additional observations from a re-analysis of the deposited data

How the results depend on the processing

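Of the entries of the block, 4 were called higher and 1 lower. The 3 higher calls of miR-6937-5p, miR-7087-3p and miR-6942-3p held in 8 of 9 settings with all libraries kept (both other pseudocounts, both filters, the replicate block, both scalings and a robust prior). Without the limma trend 0 were higher and 0 lower (17 and 13 at an unadjusted p under 0.05). With a library left out 2 to 3 were higher and 0 to 1 lower. The lower count was 0 with a pseudocount of 0.5, no filter, the replicate block, scaling to named entries, median centring or a robust prior (3 to 11 lower at an unadjusted p under 0.05), and 1 with a pseudocount of 5 or a mean of at least 10 RPM. With the replicate block 3 were higher. The labels do not say that the replicate numbers pair libraries. Median centring added miR-7063-5p, named here after its values were seen. Arm ratio calls went from 0 to 3 with a pseudocount of 5. The share over all tested hairpins is not given for that setting, so the 3 are not read as a result about the block. With an arm sum of at least 3 RPM there was 1 call (miR-6957, which passed that filter through the controls only). Entries without a call changed sign: miR-6995-3p had 0.20 scaled to named entries, 0.11 median centred and -0.56 to 0.41 with a library left out; miR-6920-5p had 0.11, 0.026 and -0.35 to 0.064; miR-7075-3p had -0.49 to 0.0033 and miR-7033-5p -0.19 to 0.30 with a library left out, and miR-7033-5p -0.0019 with a pseudocount of 5. The causes were not tested. Tests on read counts were not run.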
